A study of Rattus norvegicus with 9 samples.

Results

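The frontal cortex of the 3 Control rats, named A1, A2 and A6, is described here as a baseline transcriptome. They were chosen by their group label alone, out of the 9 rats of the series, and every count in their 3 columns was used. All 9 were male Wistar rats killed at 14 weeks of age after behavioral tests, 3 in each of the groups Control, MS and MS+EA. Control litters were left with their dams until weaning on postnatal day 21, whereas MS litters were separated from the dam for 4 h a day on postnatal days 1 to 21, and MS+EA rats were separated in the same way and later received electroacupuncture under isoflurane between postnatal days 61 and 81. The Control and MS rats received the anesthesia on the same schedule without needles, so the Control rats are undisturbed pups but not untreated adults. RNA with an integrity number above 8 was extracted from the tissue, depleted of ribosomal RNA and sequenced, with 1 library per rat.

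The frontal cortex is a layered sheet in which excitatory neurons that release glutamate project to other areas, local inhibitory interneurons release GABA, and astrocytes, oligodendrocytes, microglia and blood vessels sustain and insulate them. Monoamine and acetylcholine fibers reach it from cell bodies elsewhere, so the cortex makes receptors for transmitters whose synthesizing enzymes and uptake carriers are mostly transcribed in other brain regions. Whole tissue was sequenced, and fewer cells of a type and less RNA per cell cannot be told apart.

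The table lists 37209 genes. Totals were 19007907 counts in A1, 16240923 in A2 and 16153292 in A6, and levels are given as CPM, the counts scaled to a library of 1000000 with TMM factors, which makes 1 CPM worth 16.1 to 18.7 counts. CPM is a share of reads and not of transcripts, because a long transcript yields more reads than a short one and no transcript lengths were used. Levels are therefore compared between rats and not ranked between genes. A gene is called present at 1 CPM or more in each of the 3 rats, at the floor at 3 counts or fewer in each of the 3, and a trace otherwise. Of all genes, 14422 (38.8%) were present, 5415 were traces and 17372 were at the floor, of which 13553 had no read in any Control rat. At least 1 count was found for 21453 genes in A1, 21387 in A2 and 21498 in A6. A count of 0 is a limit of detection: 3 counts equal 0.160 to 0.186 CPM in these libraries.

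Reads were spread over many genes. In A1, A2 and A6, 883, 932 and 910 genes held 50% of the counts. The 94 genes with a mean of 1000 CPM or more took 16.9% of the counts, the 2254 genes between 100 and 1000 CPM took 53.8%, and the 22067 genes under 1 CPM took 0.207%. The leading 10 genes held 4.52% ± 0.095 (SD, n = 3) and the leading 100 genes 17.5% ± 0.42.

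The gene with most reads was COX1, the mitochondrially encoded catalytic subunit of cytochrome c oxidase, at 18893 CPM in A1, 17471 in A2 and 18744 in A6. It alone took 1.83% of the counts, and its coefficient of variation (CV) over the 3 rats was 4.26%. The other mitochondrial genes among the leading 15 were ND5 at 2288 ± 67.9 CPM (SD, n = 3) and CYTB at 2209 ± 42.1, subunits of respiratory complexes I and III. The 13 mitochondrial protein genes together held 3.09% ± 0.043 of the counts. The 87 cytoplasmic ribosomal protein genes held 0.463% ± 0.012. Their members ranged widely, with means of 0.0824 CPM for Rpl7a and 0.839 for Rpl38 beside 197.5 for Rpl19. How reads that match several genes were counted is not given in the sources used here. Its part in these low values was not tested, so the share is uncertain.

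The neuronal cytoskeleton supplied most of the nuclear genes at the top. Map1b, Map2 and Map1a, which encode microtubule-associated proteins of axons and dendrites, had means of 3597 ± 109, 3088 ± 147 and 2716 ± 313 CPM. Sptbn1 and Sptan1, the spectrins under the plasma membrane, had 2809 ± 76.0 and 2675 ± 66.6 CPM, and Ank2, an ankyrin that anchors membrane proteins to them, had 2402 ± 15.6 CPM. Ank2 was the steadiest of the 15, with a CV of 0.650%. Zwint, which encodes a kinetochore-associated protein, had the most reads of any nuclear gene at 3866, 3816 and 3566 CPM. Camk2a, the calcium/calmodulin kinase of excitatory synapses, had 2539, 1967 and 2295 CPM. Scd, a fatty acid desaturase, and Glul, the astrocytic glutamine synthetase, had 3285 ± 359 and 2237 ± 298 CPM. For Scd, Map1a, Camk2a and Glul, the largest value was in A1 and the smallest in A2. LOC310926 had 2617 ± 49.5 CPM and carries no name in the reference table.

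**Figure D1:**
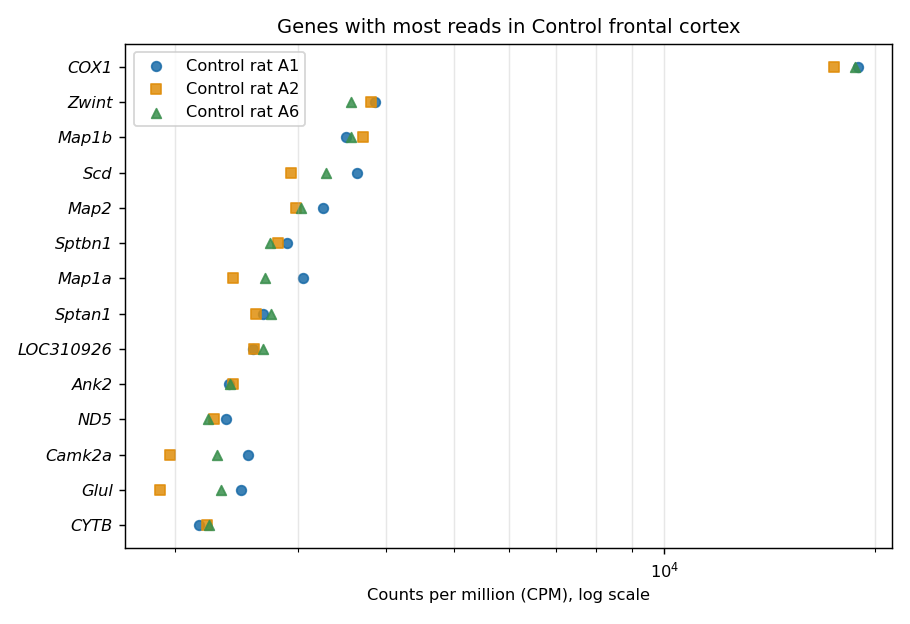
CPM on a log axis (horizontal) of 14 of the 15 genes with the highest mean in Control rats (vertical), with a symbol for each rat. COX1 stands apart with a mean of 18369 CPM, the means of the other 13 run from 2209 to 3749 CPM, and the rats lie furthest apart for Map1a, Camk2a, Glul and Scd.

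By the gene type given in the table, mRNA genes are 62.9% of the list but took 98.1% ± 0.10 of the counts (SD, n = 3). Of 23422 mRNA genes, 13118 (56.0%) were present. The 5897 lncRNA genes took 0.870% ± 0.063 of the counts and 737 (12.5%) were present, and the 6887 genes typed ncRNA took 0.253% ± 0.018 with 313 (4.54%) present. Among 492 miscRNA genes, 209 (42.5%) were present with 0.622% ± 0.031 of the counts. The 7 rRNA genes kept 0.111% ± 0.017 of the counts after depletion. A present mRNA gene had a median of 24.1 CPM, a present lncRNA gene 3.76 CPM.

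The type is not always the product. Of the 1259 present genes typed ncRNA, lncRNA or miscRNA, 572 could be matched to the RefSeq gene table by symbol or identifier, and RefSeq lists 140 of those as protein coding and 208 as pseudogenes. Huwe1, a ubiquitin ligase gene at 606 ± 5.10 CPM, and Vps13c, a lipid transfer protein gene at 291 ± 23.0 CPM, were among the 10 leading genes not typed mRNA and are protein coding in RefSeq.

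The leading non-coding transcripts were few. LOC100910827, which RefSeq names Oip5-as1, had 1078, 1142 and 1161 CPM, a CV of 3.85%. RGD1566401, which RefSeq names Meg3, a maternally expressed imprinted RNA, had 587 CPM in A1 against 898 in A2 and 995 in A6. Miat, a neuronal lncRNA, also had its smallest value in A1 (341 CPM, with 409 in A2 and 490 in A6). Meg3 and Miat thus varied among the rats by more than Oip5-as1, with CVs of 25.8% and 18.1%. Rmrp, typed as the RNA of RNase MRP but matched to the RefSeq name Rpph1, had 526, 337 and 407 CPM. The ribosomal precursor Rn45s had 643 ± 112 CPM and the mitochondrial 16S RNA Rnr2 had 457, 234 and 372 CPM. The library preparation removed ribosomal RNA, so the ribosomal values are what remained after it. Prrc2c, which RefSeq lists as a transcribed pseudogene, and RGD1306148, which had no RefSeq match, are both typed miscRNA. They completed the 10 leading genes not typed mRNA at 309 ± 8.74 and 265 ± 6.44 CPM, and the type does not show them to be non-coding.

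The libraries were made from total RNA and not from a small RNA fraction, so a count on a miRNA gene is not a level of mature miRNA. Of 432 miRNA and precursor genes, 33 were present. The 4 with most reads are shown with their mature sequences from RefSeq (GRCr8), 5′ to 3′, with the seed, bases 2 to 8, in capitals, since the seed sets which targets a mature miRNA would pair with.
rno-miR-6321: uACUGCAGugaguucuaugaagc
rno-miR-770-5p: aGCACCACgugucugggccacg
rno-miR-770-3p: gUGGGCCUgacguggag
rno-miR-3102: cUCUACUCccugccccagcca
rno-miR-3583-5p: aGCAUGAAgaguucagaucacguu
rno-miR-3583-3p: cCUGACUUcucucuucaugcag
No seed is shared among these sequences. Mir6321 had 828, 722 and 618 counts in A1, A2 and A6. Mir770, which lies within the Meg3 locus, had 359, 582 and 677 counts, the same order of rats as Meg3. Mir3102 had 637, 413 and 520 counts and Mir3583 had 579, 502 and 403. Among better known miRNA genes, Mir22 had 125, 115 and 152 counts.

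Marker lists placed the tissue. All 10 excitatory neuron genes were present, with a summed level of 7056 ± 412 CPM (SD, n = 3). They include Slc17a7, the vesicular glutamate transporter of cortical neurons, at 1634, 1531 and 1606 CPM, and the cortical transcription factor Tbr1 (101 ± 6.07 CPM). The sum also holds Snap25 at 2150 ± 29.6 CPM, a gene not limited to excitatory neurons. All 8 layer 5 genes were present and their sum was 537 ± 7.26 CPM, the narrowest spread of the cell type lists with a CV of 1.35%. Fezf2 and Bcl11b, which specify subcerebral projection neurons, had 31.2 ± 1.65 and 83.3 ± 4.44 CPM. Of the 10 upper layer genes 8 were present, and of the 10 genes of layers 6 and 6b also 8.

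Interneuron genes summed to 912 ± 23.2 CPM, and 14 of 15 were present. The list includes Cck, a gene of many cortical neurons, so the sum is not that of interneurons alone. Gad1, a GABA-synthesizing enzyme, had 229, 233 and 225 CPM, and the subclass markers Pvalb, Sst and Vip had 37.6 ± 1.72, 61.6 ± 4.94 and 27.1 ± 2.95 CPM. The gene missing from the present ones was Npy, the neuropeptide Y gene, with 13, 7 and 2 counts. The counting program and its treatment of strand and of reads that match several genes are not given in the sources used here, and their part in this low count was not tested. Its receptor genes Npy1r, Npy2r and Npy5r were present at 35.9 ± 2.94, 2.41 ± 0.777 and 6.26 ± 0.647 CPM.

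Every astrocyte, mature oligodendrocyte and oligodendrocyte precursor gene on the lists was present. Astrocyte genes summed to 8049 ± 826 CPM, with Slc1a2, the main glutamate uptake carrier, at 1764 ± 108 and Gfap, the intermediate filament, at 391 ± 105 CPM. Myelin and mature oligodendrocyte genes summed to 2968 ± 606 CPM and precursor genes to 325 ± 26.9 CPM. Of 12 microglial genes 11 were present (385 ± 22.1 CPM summed), with Siglech at 0, 1 and 0 counts. Endothelial genes summed to 502 ± 79.0 CPM and pericyte and smooth muscle genes to 146 ± 6.39 CPM, all members present.

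Neighboring tissues were represented to different degrees. The pituitary hormone genes Gh1, Fshb, Tshb and Cga had no read, and 11 of 15 genes of organs outside the brain were at the floor, although Alb, the albumin gene, had 3.82 ± 0.583 CPM. Of 9 choroid plexus and ependyma genes only Ttr (1.54 ± 0.413 CPM) and Enpp2, which oligodendrocytes also transcribe, were present. Striatal genes were present in 9 of 10 cases and summed to 249 ± 9.70 CPM, of which 34.3% came from Ppp1r1b, a gene that cortical neurons also transcribe, at 85.7 ± 10.1 CPM. Adora2a and Drd2, defining genes of striatopallidal neurons, had 3.44 ± 0.261 and 4.52 ± 1.42 CPM. Hypothalamic peptide genes summed to 7.81 CPM in A1 against 2.92 in A2 and 2.36 in A6. In A1, Hcrt had 23 counts, Pmch 31, Avp 29 and Oxt 25, whereas A2 and A6 had between 0 and 4 counts of each. A1 thus had most of these reads among the Control rats, but the list sum ran from 2.30 to 48.8 CPM among the other 6 rats, and none of the 10 genes was present in Control rats.

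**Figure D2:**
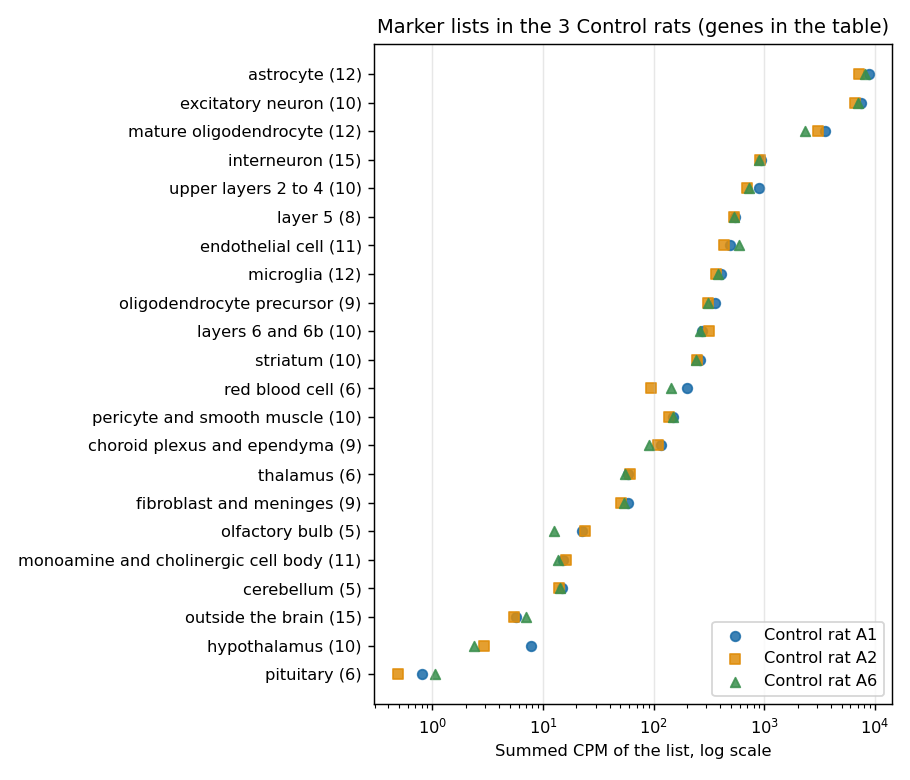
Summed CPM on a log axis (horizontal) of 22 marker lists (vertical, with the number of genes found in the table) in each of the 3 Control rats. Neuronal and glial lists lie near or above 300 CPM, the pituitary list near 1 CPM, and the rats separate most on the hypothalamus, pituitary, red blood cell and olfactory bulb lists.

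Receptor and transporter genes were taken family by family. Of 232 such genes, 167 were present, 38 were traces and 27 were at the floor. Of the 146 receptor genes, 102 were present and 20 were at the floor.

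Ionotropic glutamate receptors carry fast excitation. All 4 AMPA receptor genes were present, with Gria1 at 325 ± 12.5, Gria2 at 333 ± 12.3, Gria3 at 638 ± 15.3 and Gria4 at 73.4 ± 0.631 CPM, and the family sum varied by a CV of 1.03%. All 5 kainate receptor genes and both delta receptor genes were present as well. Of the NMDA receptor genes, the obligatory subunit gene Grin1 had 612 ± 28.1 CPM, Grin2b had 564 ± 7.43 and Grin2a had 52.4 ± 2.45, and Grin3b was at the floor with 0, 1 and 1 counts. The 8 metabotropic receptor genes were all present, from Grm3 at 473 ± 23.6 CPM to Grm6, known from retinal bipolar cells, with 60, 41 and 53 counts. Grm2, a presynaptic autoreceptor gene, had 67.7 CPM in A1 but 21.6 in A2 and 26.8 in A6, and the MS and MS+EA rats ranged from 21.6 to 62.9 CPM.

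For inhibition, 13 of 19 GABA-A receptor genes were present. Gabrb2, a subunit gene of common synaptic receptors, had 407 ± 20.8 CPM, and the extrasynaptic subunit genes Gabra5 and Gabrd had 77.2 ± 12.9 and 56.4 ± 7.29 CPM. Gabra6, a cerebellar granule cell gene, had 10, 13 and 5 counts, and Gabrp and Gabrr1 had none. Gabrq, the theta subunit gene, sat at the limit with 19, 42 and 11 counts. Both GABA-B receptor genes were present, Gabbr1 at 1085 ± 43.6 and Gabbr2 at 649 ± 17.2 CPM. Of the glycine receptor genes, the beta subunit gene Glrb had 157 ± 8.81 CPM, and among the alpha subunit genes only Glra2 was present, at 1.48 ± 0.325 CPM.

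Acetylcholine receptors split by subunit. Of 16 nicotinic receptor genes 4 were present: Chrna4 (47.5 ± 4.18 CPM) and Chrnb2 (61.3 ± 5.40 CPM), which form the common heteromeric brain receptor, Chrna7 (67.4 ± 3.05 CPM), which forms homomers, and Chrna3 at 1.27 ± 0.0604 CPM. Chrna2 fell just outside with 19, 17 and 15 counts. Chrna6, Chrna9, Chrnd and Chrng had no read. Of 5 muscarinic receptor genes only Chrm5 was not present, with 6, 5 and 12 counts.

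Many monoamine receptor genes were present, whereas the high-affinity uptake carrier genes were at the floor. Of 14 serotonin receptor genes 10 were present, with Htr2a, a postsynaptic receptor of pyramidal neurons, at 64.3 ± 3.54 CPM and Htr1a at 5.92 ± 0.622 CPM. Htr3b had no read, Htr2b had 1 read in all and Htr7 had 1 count in each rat. As for Npy, the part of the counting steps in the low Htr7 count was not tested. For dopamine, Drd1 had 12.2, 18.1 and 11.9 CPM and Drd2 had 3.31, 6.09 and 4.16 CPM, both largest in A2. Drd3 was at the floor, and Drd5 had 30 counts in A1 but 6 in each of A2 and A6. Of 9 adrenergic receptor genes 7 were present, and Adra2b had 0, 1 and 3 counts. The uptake carrier genes for noradrenaline (Slc6a2), dopamine (Slc6a3) and serotonin (Slc6a4) all had 3 counts or fewer in each rat, as did Dbh, and Fev had none. The genes of 2 low-affinity monoamine carriers, Slc22a3 and Slc29a4, were present at 5.16 ± 0.620 and 8.70 ± 2.22 CPM, and Th, the tyrosine hydroxylase gene, was present at 1.93 ± 0.217 CPM.

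Neuromodulator receptors followed. All 4 opioid receptor genes were present, between Oprk1 at 1.99 ± 0.342 and Oprl1 at 42.5 ± 4.17 CPM. Cnr1, the neuronal cannabinoid receptor gene, had 471 ± 31.2 CPM and Cnr2 had 1.76 ± 0.394. Hrh3 and Adora1, presynaptic inhibitory receptor genes, had 162 ± 12.3 and 120 ± 4.72 CPM, and Hrh4 and Adora3 were at the floor. Of 25 neuropeptide receptor genes 17 were present, among them Crhr1 (19.2 ± 0.841 CPM), which binds the stress peptide CRH. Oxtr, the oxytocin receptor gene, lay at the limit with 30, 22 and 15 counts, Hcrtr2 had 15, 51 and 30 and Ntsr1, a layer 6 gene, had 24, 51 and 7. Cckar and Galr2 had no read while Cckbr had 42.8 ± 1.47 CPM and Galr1 had 1.16 ± 0.212. The corticosteroid receptor genes Nr3c1 and Nr3c2 had 140 ± 11.3 and 51.7 ± 2.29 CPM. The neurotrophin receptor genes Ntrk2 and Ntrk3 had 309 ± 6.62 and 167 ± 7.95 CPM.

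Of 30 neuropeptide and neurotrophin genes 18 were present and 12 were traces. Cck, the cholecystokinin gene of many cortical neurons, had 308 ± 17.4 CPM, Pdyn, the prodynorphin gene, had 21.2 ± 1.41 and Crh, the stress peptide gene, had 3.17 ± 0.590. Bdnf, the neurotrophin that binds the Ntrk2 product, had 370, 436 and 569 counts.

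Transporters and channels were grouped by what they carry. Slc1a2 and Slc1a3, the astrocytic glutamate carriers, were present at 1764 ± 108 and 900 ± 83.5 CPM, and the retinal carrier Slc1a7 was at the floor. Slc12a5, the chloride extruder of mature neurons, had 677 ± 55.8 CPM and Slc12a2, a chloride importer, had 115 ± 5.10. Of 13 sodium channel genes 11 were present, with Scn2a1, Scn8a and Scn1a at 983 ± 51.8, 597 ± 8.05 and 209 ± 4.28 CPM, and Scn10a, a channel of sensory neurons, had 0, 0 and 1 counts. Their sum had a CV of 0.630%. Of the glucose carriers, Slc2a1, found at the blood-brain barrier and in astrocytes, had 141, 129 and 241 CPM in A1, A2 and A6, so A6 stood above the other two. Slc2a3, known as the neuronal glucose carrier, had only 32, 37 and 13 counts and was not present under the limit of 1 CPM in each rat, a low count that, like that of Npy, may depend on counting steps not given in the sources used here.

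**Figure D3:**
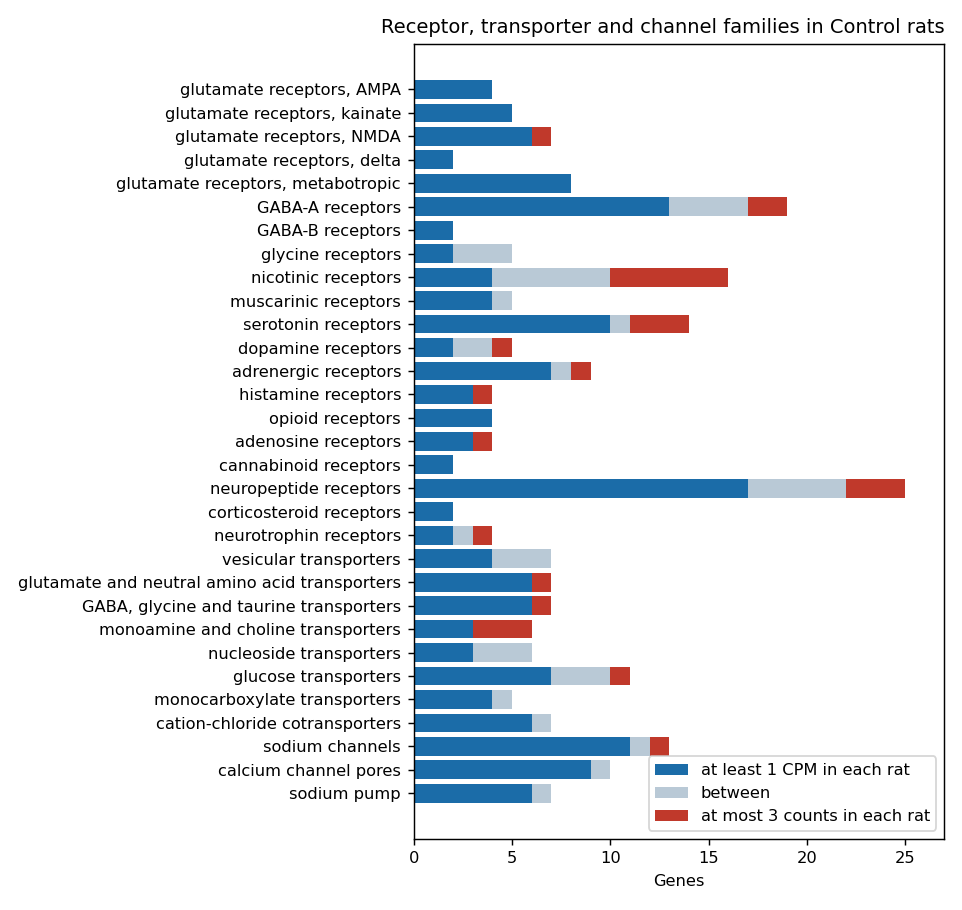
Number of genes (horizontal) in each of 31 receptor, transporter and channel families (vertical), split into genes present in all 3 Control rats, traces between the limits and genes at the floor. AMPA, kainate, metabotropic, GABA-B, opioid, cannabinoid and corticosteroid receptor families are present in full, and nicotinic receptors have the most genes at the floor, 6 of 16.

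Low values of some very common genes call for care with copies. Hspa8, the constitutive heat shock chaperone gene, had 22.3 ± 1.61 CPM, while 28 table entries that RefSeq names as its pseudogenes summed to 217 ± 19.9 CPM. For Hsp90aa1 the gene had 34.0 ± 2.40 CPM and 15 pseudogene entries summed to 71.2 ± 8.40 CPM. Calm2 had 342 ± 1.31 CPM beside 198 ± 15.1 CPM for its 3 entries. Gapdh was different, with 160 ± 5.62 CPM in the gene and 2.82 ± 0.585 CPM over 36 entries. How the counting shared reads between such copies is not given in the sources used here, so the levels of Hspa8, Hsp90aa1 and Calm2 are uncertain. Hprt1, often used as a reference gene, had 37, 29 and 21 counts and its 2 pseudogene entries had none.

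The spread between the 3 rats was small for most genes. The biological coefficient of variation, the spread that edgeR estimates beyond counting error, was 10.4% over 15403 genes. The median CV of present genes was 8.72%, and it fell from 16.4% at 1 to 10 CPM, where counting error alone gives 12.1%, to 4.50% at 1000 CPM or more, where counting error gives 0.629%. Of the 14422 present genes, 1940 (13.5%) differed over 1.5-fold between the highest and lowest rat and 410 (2.84%) over 2-fold. No pair of rats was alike to within counting error. For each gene, the squared deviation between 2 rats was divided by the counting variance, with total counts and without TMM factors. The mean of this ratio over genes was 7.56 for A1 and A2, 7.0 for A1 and A6, and 5.74 for A2 and A6. Over all present genes, the highest rat was A1 for 35.5%, A2 for 32.6% and A6 for 31.9%, and the lowest rat was A1 for 34.2%, A2 for 32.8% and A6 for 33.0%.

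Against these near-equal shares, several lists followed single rats. A list of common genes did so too. Of 12 reference genes, 9 were highest in A1 and 9 were lowest in A6, with sums of 5351, 5096 and 4938.5 CPM in A1, A2 and A6. Of 14 present interneuron genes, 10 were lowest in A6. All 10 glucocorticoid target genes were highest in A6. Sgk1, a kinase gene induced by glucocorticoids, had 68.3, 83.0 and 142 CPM in A1, A2 and A6, Pdk4, a regulator of glucose oxidation, had 85, 69 and 241 counts, and Tsc22d3, which encodes GILZ, had 43.4, 48.7 and 80.6 CPM. The list sum was 314 CPM in A1, 343 in A2 and 526 in A6, against 323 to 375 in the MS rats and 311 to 421 in the MS+EA rats, so A6 lay above all 8 other rats. Endothelial genes summed to 487, 431 and 587 CPM in A1, A2 and A6, with 6 of 11 highest in A6 and 5 in A1. That list includes Slc2a1, the glucose carrier gene described above, which is also found in astrocytes. The gap between the sums of A1 and A6 was about that of Slc2a1 alone. The part of endothelial genes in the glucocorticoid target levels was not tested. Of 15 clock genes 10 were highest in A6, including Per1, which glucocorticoids also induce, at 80.1, 101 and 170 CPM. Sampling hour and corticosterone of each rat were not analysed here.

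Immediate early genes, which neuronal activity induces within minutes, were lowest in A1 for 15 of 18 members. Fos had 15.9, 32.2 and 25.7 CPM in A1, A2 and A6, Egr2 had 7.33, 21.3 and 35.5, and Arc had 153, 254 and 296. The members did not move as a block, since Npas4 had 23.7, 32.6 and 5.59 CPM and Btg2 had 44.1, 101 and 23.7, both lowest in A6. The median CV of the 18 genes was 34.9%, beside 8.72% for present genes as a whole.

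Myelin genes were lowest in A6 for 11 of 12 members, and their sum was 3537, 3036 and 2331 CPM in A1, A2 and A6. Opalin, a myelin membrane protein gene, had 49.0, 59.1 and 28.9 CPM, whereas Aspa, which makes acetate for lipid synthesis, was highest in A6 at 14.3, 16.3 and 21.9 CPM. All 8 present upper layer genes were highest in A1, for example Cux2 at 233, 177 and 209 CPM and Otof at 121, 74.5 and 78.6 CPM. All 8 present genes of layers 6 and 6b were highest in A2, for example Foxp2 at 11.9, 19.7 and 14.0 CPM. Astrocyte genes were highest in A1 for 8 of 12 members and lowest in A2 for 9. Red blood cell genes summed to 200, 94.6 and 143 CPM, with Hba1, an alpha globin gene, at 109, 51.2 and 80.5 CPM. With 1 library per rat, differences between animals and between pieces of tissue cannot be told apart.

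**Figure D4:**
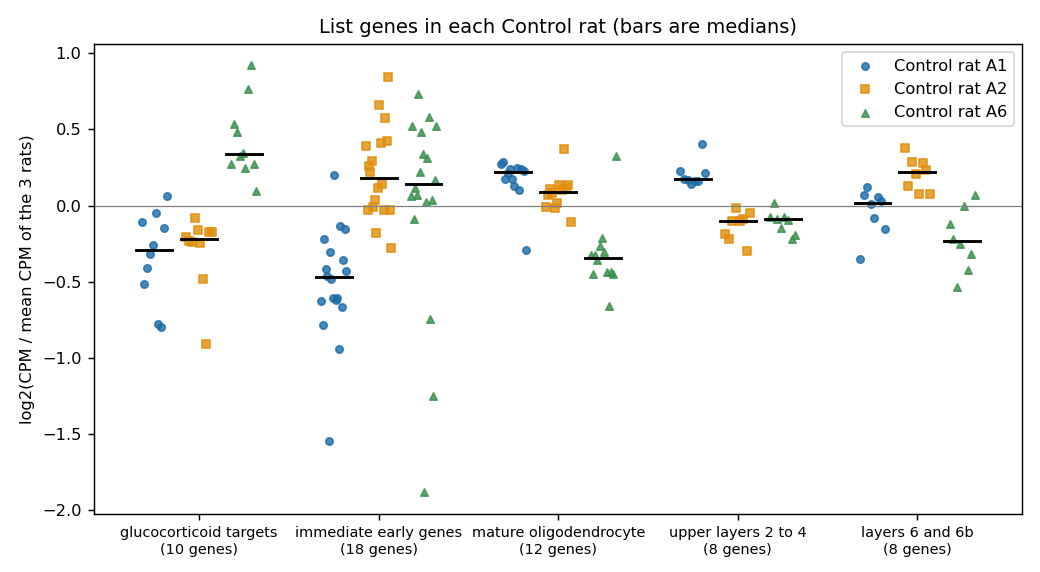
Log2 ratio of each rat's CPM to the mean of the 3 Control rats (vertical) for the present genes of 5 lists (horizontal), with a symbol for each gene and rat and a black bar at the median. Glucocorticoid targets lie high in A6, immediate early genes low in A1, myelin genes low in A6, upper layer genes high in A1 and layer 6 genes high in A2.

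The genes with the widest range between Control rats, among those with a mean of 5 CPM or more, often had 1 rat apart from the others. Eif3h, a translation initiation factor gene, had 1.44 CPM in A1, 35.0 in A2 and 0.745 in A6, and the other 6 rats lay between 0.937 and 2.70. Ndst4, a heparan sulfate enzyme gene, had 27.3, 19.4 and 0.870 CPM, and Tagln3 had 69.2, 5.54 and 6.65. The latter pair also spanned 0.661 to 26.7 and 4.76 to 75.7 CPM among the other 6 rats, so such jumps were not limited to the Control group. Among the remaining 7 of the 10 genes with the widest range, Cyr61, Npas4, Apold1 and Egr2 are rapidly inducible, with Apold1 at 24.3, 114 and 98.0 CPM. F2rl1, a protease receptor gene that ranked above Apold1 and Egr2, had 1.77, 3.47 and 10.4 CPM. LOC100909441 had 3.58, 11.9 and 1.68 CPM, and LOC100911581, which RefSeq names Faah, had 12.4, 1.95 and 3.42.

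The promoters of the genes offered a feature that the levels did not use. RefSeq (GRCr8) promoters of 300 bases, 250 before and 50 after the start, were matched by symbol to 16337 mRNA genes. The dinucleotide CG was counted, which reads the same on both strands. Present genes had a median of 21 CG, traces 8 and genes at the floor 3. A promoter held 10 or more CG in 83.0% of present genes, 43.9% of traces and 15.3% of genes at the floor. The share was 61.5% over all 16337 matched mRNA genes and 44.1% over all 27457 RefSeq promoters. The letters TATAAA, searched on the gene's strand within the 50 bases before the start, stood in 1.31% of present genes and 6.08% of genes at the floor. Their share was 2.93% over all matched mRNA genes and 2.46% over all promoters. Among receptor and transporter genes the order of CG held with a smaller gap, with medians of 17 CG for 119 present genes, 9.5 for 30 traces and 7 for 19 at the floor. The order of TATAAA did not hold there, with 3 present genes, 0 traces and 0 genes at the floor.

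The sequences below show the last 100 bases before the start, 5′ to 3′ on the gene's strand, for a CG-rich promoter of a gene with many reads, a CG-rich promoter of a gene with none, and 2 CG-poor promoters of genes transcribed mainly outside the cortex. CG and TATAAA are in capitals. Coordinates are of GRCr8, a later build than the one used for the counts, and the genes were chosen after their levels were known.
Slc17a7, chr1:104786105-104786204, plus strand: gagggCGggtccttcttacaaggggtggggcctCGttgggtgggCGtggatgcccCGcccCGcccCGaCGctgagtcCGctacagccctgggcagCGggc
Galr2, chr10:102013526-102013625, plus strand: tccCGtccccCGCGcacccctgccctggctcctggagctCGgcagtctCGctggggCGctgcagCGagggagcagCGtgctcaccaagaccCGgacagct
Hcrt, chr10:86191525-86191624, minus strand: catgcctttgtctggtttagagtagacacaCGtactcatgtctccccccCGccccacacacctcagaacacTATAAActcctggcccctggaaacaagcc
Alb, chr14:17906980-17907079, minus strand: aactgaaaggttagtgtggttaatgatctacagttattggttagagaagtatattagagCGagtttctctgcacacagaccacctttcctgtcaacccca
Slc17a7 and Galr2 hold 17 and 22 CG in their full 300 bases and had 1590 ± 53.3 CPM and no read. Hcrt and Alb hold 7 and 2 CG. A CG-rich promoter was thus frequent among present genes but was also found for genes without reads.

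**Figure D5:**
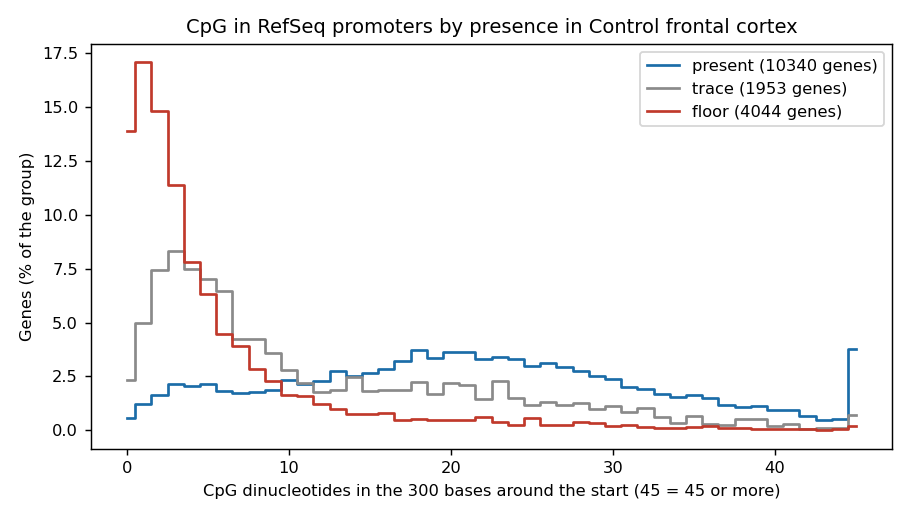
Percentage of mRNA genes (vertical) by the number of CG in their 300-base RefSeq promoter (horizontal), drawn separately for genes present, traces and at the floor in Control rats. Genes at the floor pile up under 10 CG and present genes spread around a median of 21.

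As the baseline of the series, the Control rats were set against the MS and MS+EA rats with edgeR's quasi-likelihood test on all 9 rats, and a gene was called when its p, adjusted by Benjamini-Hochberg over all genes tested, lay under 0.05 with more than a 1.5-fold change. The 2 comparisons share the Control rats. Separation was applied to whole litters, and the litter of each rat is not among the labels used. Differences between litters and between Control and separated rats therefore cannot be told apart. Of 16837 genes tested, 4 (0.0238%) were called for MS and 230 (1.37%) for MS+EA. Of the 431 list genes tested, 0 were called for MS and 8 for MS+EA, and none of the 100 genes with most reads was called in either comparison. Over all genes, 1787 had an unadjusted p under 0.05 for MS and 3787 for MS+EA, and DESeq2 called 70 and 316.

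The genes called for MS included ATP8, a mitochondrial ATP synthase subunit gene, which had 122, 95.1 and 132 CPM in A1, A2 and A6 and 310 ± 19.4 in MS rats (adjusted p = 0.000559 by edgeR), and LOC100360791, which RefSeq lists as Tpt1l3, at 48.8 ± 6.57 CPM against 4.99 ± 0.308 (adjusted p = 1.53e-07). Both were also called for MS+EA, at 295 ± 46.2 and 5.54 ± 0.775 CPM. The other 2 were Slco1a2, an organic anion carrier gene, at 67.7 ± 5.57 CPM against 107 ± 13.8 (adjusted p = 0.0421), and Acsm3 at 0.950 ± 0.447 against 13.1 ± 4.56 (adjusted p = 0.0421). Slco1a2 lost its call without A1, A2, A6 or B4 (adjusted p 0.0778 to 0.224) and Acsm3 without A1, A2, A6 or B6 (0.129 to 0.18).

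Among list genes, Gria2 was higher in MS+EA rats at 526 CPM against 333 ± 12.3 in Control rats (log2 fold change 0.66 ± 0.11 SE, adjusted p = 0.00856 by edgeR). Its call was lost without A1 (adjusted p = 0.0506) and without C10, where the log2 fold change was 0.52. The immediate early genes Junb, Fosb and Egr4 were lower in MS+EA rats, at 34.4, 9.12 and 8.24 CPM against 64.2 ± 14.2, 20.9 ± 8.97 and 17.0 ± 6.05 in Control rats (adjusted p = 0.0116, 0.0256 and 0.0418 by edgeR). Junb kept its call under each of 13 alternatives. Fosb lost it without A2, A6, C10 or C16 (adjusted p 0.0543 to 0.0801) and Egr4 without A1, A2, A6, C10 or C16 (0.0646 to 0.146). Eif2s3y, a Y-linked translation factor gene, rose from 30.4 ± 1.61 to 48.0 CPM (adjusted p = 0.00576). Slc2a12, a glucose carrier gene, was called at 16.7 CPM against 2.90 ± 0.653, and Slc6a20, on the fibroblast and meninges list, at 32.8 against 4.77 ± 0.353. Chrnb3, a nicotinic receptor gene, was called with 2, 3 and 0 counts in the Control rats. It passed the filter only through rats outside the Control group, and it was not tested under a filter of 10 counts in every rat. Slc2a12, Slc6a20 and Chrnb3 each lost the call without A1, A2, A6 or C16 (adjusted p 0.0656 to 0.147 by edgeR), and without C16 the log2 fold change of Slc6a20 fell from 2.77 to 1.78.

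Separate from any call, the 3 Control rats lay wholly above or below the other 6 for 51 of 431 list genes (11.8%), beside 8.89% of all genes tested. Nr3c1, the glucocorticoid receptor gene, had 147, 147 and 127 CPM in A1, A2 and A6, below the 168 to 181 CPM of MS rats and the 178 to 189 CPM of MS+EA rats. Its difference had an adjusted p of 0.129 for MS and 0.0131 for MS+EA by edgeR and did not reach 1.5-fold. By summed level, the Control rats lay outside the other 6 for 13 of 61 lists, above for 4 and below for 9. The 4 above were the neuropeptide receptors (345 to 366 CPM against 303 to 340), the histamine receptors (167 to 194 against 147 to 165), the vesicular transporters (1588 to 1689 against 1278 to 1542) and the kainate receptors (514 to 551 against 405 to 487), the last of which overlapped when scaled by total counts. Of the tested members of these 4 lists, 3 of 20, 1 of 3, 1 of 6 and 1 of 5 genes lay above on their own, in that order. Over all 16837 genes tested, 607 lay above and 889 lay below. The share of 8.89% holds for single genes in either direction, and no such share was computed for sums. Among the 9 below, summed levels of fibroblast and meninges genes were 50.9 to 59.0 CPM in Control rats and 76.5 to 545 in the other 6, and those of pericyte and smooth muscle genes 138 to 150 against 156 to 312. Of the tested genes of these 2 lists, 5 of 9 and 3 of 10 lay below on their own. The red blood cell sum, at 94.6 to 200 CPM against 211 to 306, was also lower in Control rats, although 0 of its 6 tested genes lay below on its own. The part of these cells in the differences between groups was not tested.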

How the data were processed

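Whole-tissue RNA-seq of frontal cortex from 9 rats was used, with the 3 Control rats described in depth. Per the labels and methods, the authors aligned reads with HISAT2 (version 2.0.4) to Rnor_6.0 and deposited raw gene counts for 37209 genes with a gene type. The counting program, its use of strand and its treatment of reads that match several genes are not given in the sources used here. No column was left unused.

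Counts were scaled by TMM in edgeR 4.0.16 (R 4.3.3) and written as CPM. Present, trace and floor were set at 1 CPM and 3 counts. Groups were taken from the labels and compared with edgeR's quasi-likelihood test after filterByExpr (minimum count 10), on all 9 rats, since the study's own test was not installed. DESeq2 1.42.0 and limma 3.58.1 served as alternatives, along with other scaling, filters and leaving out each rat. The test was tested on simulated data. Descriptions used Python 3 with pandas.

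The members and gene lists were chosen with earlier results of these data known. Genes named are the 15 with most reads, the 10 leading genes not typed mRNA, the 10 with the widest range between Control rats, list members and called genes, some of which are not reported here. Chosen after their values were seen were Mir22 and the genes whose promoters are printed. RefSeq tables are of GRCr8 and were matched by symbol, synonym or identifier (73.9% of genes, 91.9% of present genes). Their spans were not used as lengths, so no value per kilobase was computed. CVs and SDs are over 3 rats.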

Additional observations from a re-analysis of the deposited data

How the results depend on the processing

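Depth, from 16153292 to 19007907 counts per Control rat, limits statements on genes near 3 counts, and 3 rats limit every SD. Against 14422 genes present, 15656 were counted with a limit of 0.5 CPM and 15523 with 10 counts in each rat, and the receptor and transporter genes present numbered 165 to 175 under all alternatives run. Without mitochondrial genes in the total, the leading 10 genes held 3.02% and the leading 100 genes 15.8% of the counts. The biological coefficient of variation was 12.7% over all 9 rats, and 9.50% to 11.5% when a Control rat was left out. Genes called for MS numbered 207 with every gene of at least 1 count and 70 by DESeq2, and 2 to 22 when a rat was left out, with 2 without A1, 2 without A2 and 22 without B3. Genes called for MS+EA numbered 469 with every gene of at least 1 count, and 71 to 261 when a rat was left out, with 71 without A1 and 121 without C10. Fewer samples enter the fits that leave out a rat, and the causes were not tested further. The lists that followed single rats did so under TMM, DESeq2 size factors and total counts (clock genes highest in A6 numbered 9 with total counts). Egr4 was not called with total counts (adjusted p = 0.0522 by edgeR), Slc6a20 and Chrnb3 with bias-adjusted deviances (0.0536 and 0.0645) and Acsm3 by limma-trend (0.0594). No alternative changed the sign of a fold change given for a called gene. Total counts in the group tests, bias-adjusted deviances and the settings for the rat patterns were chosen after seeing the data. Limits per kilobase were not run because no transcript length was used. No paired analysis was possible because each rat belongs to a single group and no label ties animals across groups.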
